A study of Mus musculus with 6 samples.

Results

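The proteasome is the protease complex that degrades most ubiquitin-tagged proteins in a cell, and its subunits were examined as mRNA levels in 6 mouse arrays. Genes were taken from probe sets annotated with 1 symbol, where that symbol opened with Psm, a letter from a to e and a number. This gave 45 genes of the 19505 genes with 1 symbol on the array, and each of the 45 had 1 probe set. The rule used names and no measured values. Of the 45, 42 are proteasome subunits, activators or base chaperones, and 3 are other genes whose symbols match (Psmc3ip, Psme3ip1 and Psme2b). Psmb5 was not analysed here. In 42 of the 45 genes the value lay above the array's median in all 6 arrays, and the exceptions were Psma8, Psmb11 and Psmc3ip.

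The complex has a barrel-shaped 20S core, built of outer rings of α subunits (Psma genes) that gate the entrance and inner rings of β subunits (Psmb genes), some of which carry the proteolytic sites. A regulatory particle caps the core. Its base holds the ring of ATPases that unfold substrates, and its lid holds the metalloprotease that removes ubiquitin chains. Interferon-γ induces alternative catalytic subunits, and the particle that contains them, the immunoproteasome, is known for producing peptides for MHC class I. Hepatocytes, which make most plasma proteins, express the constitutive subunits.

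The arrays were Clariom S mouse arrays with 3 samples in each of the groups AAV-control (arrays 48, 49 and 50) and AAV-PIK3CD (arrays 51, 52 and 53). PIK3CD encodes PI3Kδ, the catalytic isoform of phosphoinositide 3-kinase that leukocytes mainly express. The study describes male C57BL/6 mice injected at 8 weeks of age with an adeno-associated virus of serotype 8 and killed at 12 weeks. The vector carried the mouse PI3Kδ coding sequence under the TBG promoter, which is active in hepatocytes, so other liver cells would not be expected to express it. By immunohistochemistry the study reports more PI3Kδ staining throughout the liver, strong in sinusoids and around the portal vein. The control vector is described as carrying EGFP under the same promoter and, in the array labels and the study's account of the arrays, as empty. The route is given both as the portal vein and as the tail vein. The labels and the methods for the arrays call the tissue tumor, and the study elsewhere writes of liver. The labels do not say which mouse gave which array, so the limma p-values measure the spread between these samples. The rank products p-values instead set a gene's ranks against those found after gene order was shuffled within each array. All 12 hepatocyte markers examined lay above the array median in all 6 arrays, with a median level of 12.2 to 12.35 per array.

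Levels are log2 values after RMA (robust multi-array average), as deposited, and a difference is the AAV-PIK3CD mean minus the AAV-control mean on that scale. The targeted gene was checked first. Pik3cd read 4.66, 4.34 and 4.48 in the control arrays and 4.78, 5.14 and 4.86 in the AAV-PIK3CD arrays. The groups did not overlap and differed by 0.43 (SE 0.14, n = 3 per group), but the gene did not pass the test across all probe sets (rank products adjusted p = 0.674, limma adjusted p = 0.932). Array medians over all probe sets were 4.81 to 4.87. Array 51 stood apart in markers of other tissues. The 18 measured of 20 pancreatic acinar markers had a median of 7.44 in array 51 and of 4.03 to 4.16 in the other 5 arrays, and the 11 skeletal muscle markers had a median of 5.41 in array 51 and of 3.90 to 4.26 elsewhere. The log2 of the summed acinar signal was 8.17 to 8.43 in the AAV-control group and 8.31 to 13.1 in the AAV-PIK3CD group. In bulk tissue, fewer cells of a type and less RNA per cell cannot be told apart.

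None of the 45 proteasome genes passed the threshold of 0.05 by rank products in either direction, beside 0.0045% of all 22206 probe sets called higher and 0.036% called lower (0.0405% in either direction). By limma 0 of 45 passed, and 0% of all probe sets did. At an unadjusted p under 0.05 the count was also 0 of 45 by rank products, against a background of 5.7%, and 0 of 45 by limma, against 5.08%. The smallest adjusted p of any member was 0.946 by rank products and 0.932 by limma. Differences ran from -0.28 for Psmb6 to 0.17 for Psmd9, with SEs of 0.11 to 0.21, and the 95% intervals of limma together spanned -0.63 to 0.52. The largest difference corresponded to a 1.21-fold lower signal. In 3 of 45 genes (6.67%) the groups did not overlap, beside 9.44% of all probe sets. These were Psma6, where AAV-PIK3CD was lower, and Psmc3 and Psmd9, where it was higher. Psma6 and Psmc3 were named after their values were seen.

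**Figure D1:**
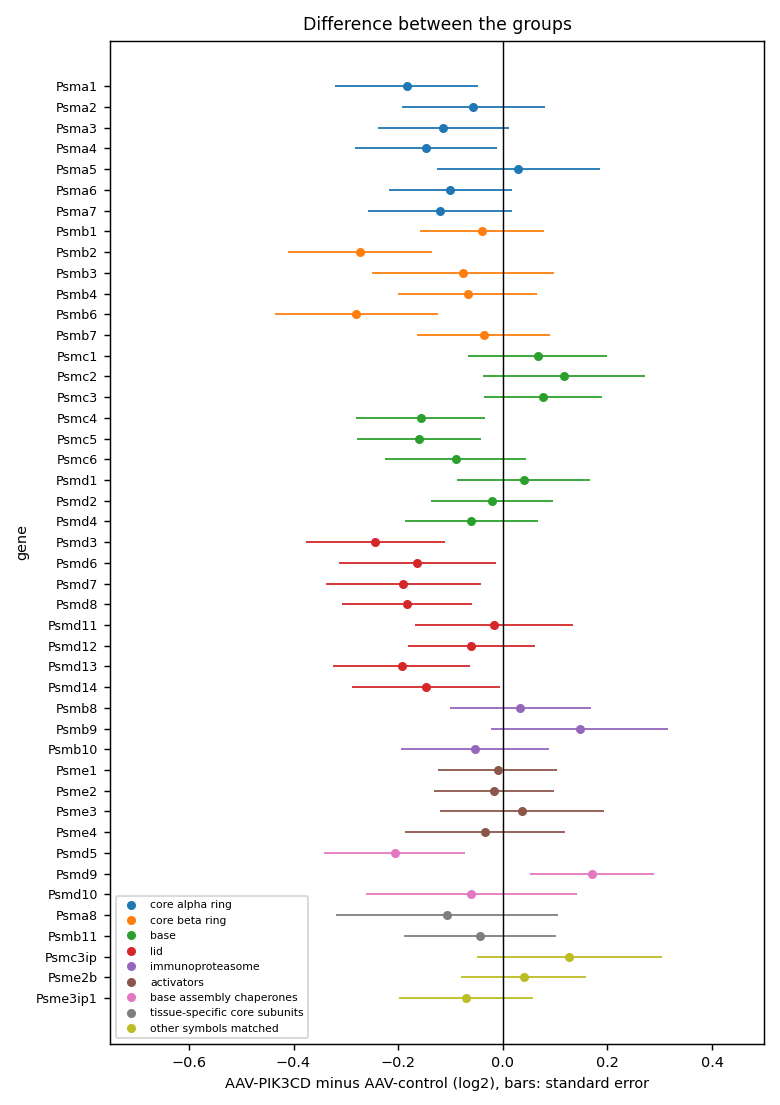
Difference between the groups for each of the 45 genes (x axis, AAV-PIK3CD minus AAV-control in log2 units, bars show the SE of limma, n = 3 arrays per group), coloured by part of the complex. Values lie between -0.28 and 0.17, and the lid genes shown all lie left of 0.

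Small differences leaned to one side. The mean was below that of the controls in 34 of 45 genes (median difference -0.06), where all probe sets had 51.5% below 0 and a median of -0.007. The lean was uneven across the parts of the complex, each counted over the genes that the name rule took. It held for 12 of 13 genes of the 20S core (median -0.10), 8 of 8 of the lid (median -0.17), 5 of 9 of the base (median -0.02), 3 of 4 activators (median -0.01) and 1 of 3 immunoproteasome subunits (median 0.03). The counts moved with the scaling. After quantile normalization they were 24 of 45 for all members, 8 of 13 for the core, 7 of 8 for the lid, 3 of 9 for the base, 0 of 4 for the activators and 1 of 3 for the immunoproteasome, and after cyclic loess 24, 9, 6, 3, 0 and 1 in the same order. Genes of the same brightness leaned the same way. The 30 core, base and lid genes had mean levels of 7.41 to 10.12, and 25 of them were below 0 with a median of -0.095. Of the 3102 probe sets within that range of levels, 70.2% were below 0, with a median of -0.067. After quantile normalization of the arrays 18 of the 30 genes were below 0, and the probe sets in the range had 52.6% below 0 and a median of -0.007. Of these 30 genes 83.3% were thus below 0 as deposited, against 70.2% of probe sets in their range of levels. After quantile normalization the shares were 60.0% and 52.6%. The gap between the shares was not tested, and both moved with the scaling of the arrays.

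The α ring was represented by Psma1 to Psma7. Of these, 6 (all but Psma5) had lower means in AAV-PIK3CD, with differences from -0.18 in Psma1 to 0.03 in Psma5. Psma6, an α subunit named after its values were seen, read 8.95, 8.89 and 8.88 in the controls and 8.86, 8.69 and 8.87 in AAV-PIK3CD. Its groups were separated by 0.01, the size of the last deposited digit, and the difference was -0.10 (SE 0.12).

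In the β ring all 6 measured constitutive subunits (Psmb1, Psmb2, Psmb3, Psmb4, Psmb6 and Psmb7) had a lower mean, with a median difference of -0.07 that became -0.006 after quantile normalization. Psmb2, a β subunit without a proteolytic site, read 8.03, 7.94 and 7.75 in the controls and 7.47, 7.60 and 7.83 in AAV-PIK3CD. One AAV-PIK3CD array lay above the lowest control, and the difference was -0.27 (SE 0.14, rank products adjusted p = 0.946). Over the 13 core genes the lowest of the 6 values fell in array 52 for 6 genes and in array 51 for 5, and the highest fell in array 50 for 7. Without array 51 the core median was -0.085, with 11 of 13 genes below 0.

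**Figure D2:**
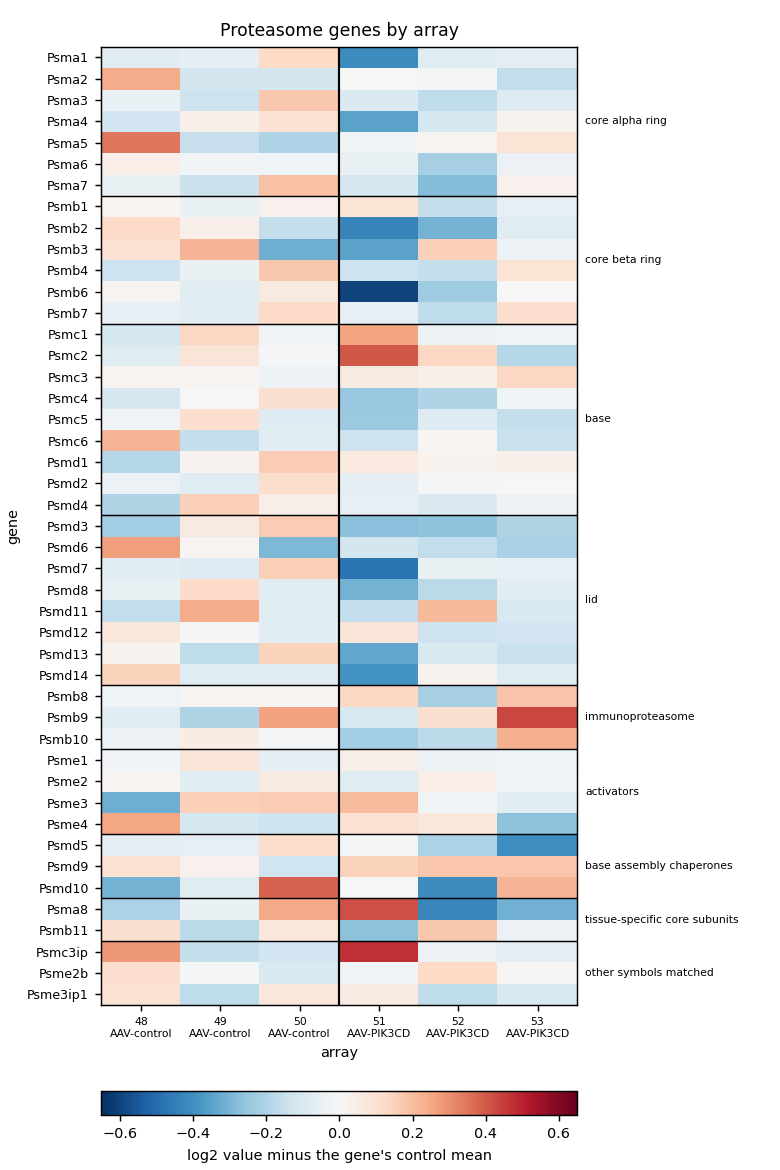
Log2 value of each of the 45 genes (rows, grouped by part of the complex) in each of the 6 arrays (columns), minus that gene's mean over the 3 AAV-control arrays, shown by colour from blue (lower) to red (higher). The deepest blue is Psmb6 in array 51, and AAV-control arrays differ among themselves by amounts like those between the groups.

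The lid had the widest gap of the parts. All 8 lid genes that the name rule took had lower means in AAV-PIK3CD, from -0.02 in Psmd11 to -0.24 in Psmd3, and none passed the test. Sem1, a lid subunit whose symbol the rule does not match, had a higher mean in AAV-PIK3CD. It differed by 0.10 (SE 0.13) with overlapping groups, and was named after its values were seen. Psmd3, a structural lid subunit, read 8.24, 8.52 and 8.63 in the controls and 8.19, 8.20 and 8.27 in AAV-PIK3CD. The AAV-PIK3CD arrays lay close together, and only the highest of them exceeded the lowest control (difference -0.24, SE 0.13, rank products adjusted p = 0.978).

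Psmd7, the subunit that pairs with the deubiquitinase Psmd14, read 10.11, 10.10 and 10.34 in the controls and 9.71, 10.14 and 10.13 in AAV-PIK3CD. Arrays 52 and 53 lay among the controls, and the difference of -0.19 (SE 0.15) came mainly from array 51: it was -0.05 without that array. Psmd13, a scaffold subunit of the lid, read 9.29, 9.10 and 9.41 in the controls and 8.93, 9.17 and 9.12 in AAV-PIK3CD (difference -0.19, SE 0.13). Again array 51 was lowest while the other arrays of its group overlapped the controls.

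Psmd8, a further scaffold subunit, read 8.57, 8.74 and 8.54 in the controls and 8.31, 8.44 and 8.55 in AAV-PIK3CD, where only array 53 reached the control range (difference -0.18, SE 0.12). Psmd6 behaved differently in the controls themselves, which read 8.35, 8.10 and 7.79 and so spanned all of the AAV-PIK3CD values of 7.96, 7.92 and 7.87 (difference -0.16, SE 0.15). The other lid genes of the rule, Psmd11, Psmd12 and Psmd14, differed by -0.02 to -0.15.

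Among the lid genes of the rule, array 51 held the lowest value in 5 of 8. It did so in 15 of all 45 members (33.3%), against 20.2% of all probe sets. Among the 30 core, base and lid genes it did so in 12 (40.0%), against 34.6% of the probe sets within their range of levels. These gaps were not tested. The lid's median relative to the control mean was -0.29 in array 51, -0.12 in array 52 and -0.11 in array 53, and -0.07 to 0.007 in the controls. Without array 51 the lid's median difference was -0.12, with 7 of 8 genes below 0. Under quantile normalization it was -0.10 (7 of 8) and under cyclic loess -0.11 (6 of 8). Array 51 is the array with raised acinar and muscle markers, and their part in the lid result was not tested.

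**Figure D3:**
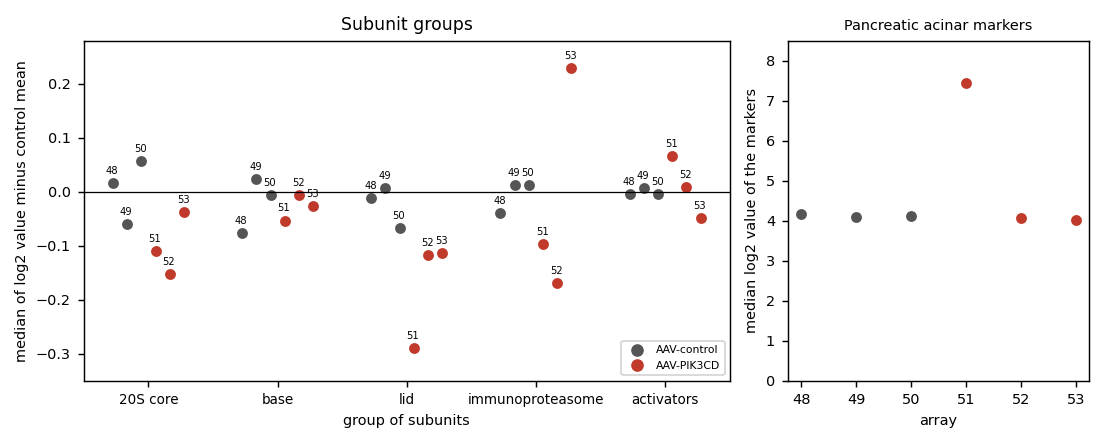
Left, median over the genes of each part of the complex of the log2 value minus the gene's control mean (y axis), 1 point per array, labelled by array number, grey for AAV-control and red for AAV-PIK3CD. Right, median log2 value of 18 pancreatic acinar markers in each array. The lid is lowest in array 51 (-0.29), the array in which the acinar markers read 7.44.

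The base showed no common lean. Of its 9 genes, the ATPases Psmc1 to Psmc6, the scaffolds Psmd1 and Psmd2 and the ubiquitin receptor Psmd4, 5 had lower and 4 had higher means. Differences ran from -0.16 to 0.12, and among the 6 ATPases 3 were lower and 3 higher. Psmc3, an ATPase named after its values were seen, read 8.87, 8.87 and 8.82 in the controls and 8.91, 8.89 and 8.99 in AAV-PIK3CD, a difference of 0.08 (SE 0.11) with groups 0.02 apart. The median of the base was -0.02 as deposited but 0.05 after quantile normalization and 0.04 after cyclic loess, so its sign depended on the scaling.

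The chaperones that help to assemble the base, Psmd5, Psmd9 and Psmd10, lay on both sides of 0. Psmd9 read 6.93, 6.86 and 6.70 in the controls and 6.98, 7.01 and 7.01 in AAV-PIK3CD. No control reached the lowest of the AAV-PIK3CD arrays, as in 4.47% of all probe sets, and the difference was 0.17 (SE 0.12, rank products adjusted p = 1.0). Psmd5 lay on the other side, at 7.12, 7.13 and 7.30 in the controls and 7.17, 6.98 and 6.78 in AAV-PIK3CD (difference -0.21, SE 0.14). Its array 51 lay within the control range and array 53 was lowest. Psmd10 differed by -0.06 (SE 0.20).

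The proteolytic sites of the constitutive core are on Psmb6 (β1, cleavage after acidic residues), Psmb7 (β2, after basic residues) and Psmb5. In the immunoproteasome Psmb9 takes the place of Psmb6, Psmb10 that of Psmb7, and Psmb8 that of Psmb5. The promoters of the first exchange pair are printed because their genes lay furthest apart in difference among the catalytic subunits. Both windows run from 250 bases before to 50 bases after a RefSeq start in GRCm38.p6. The capitals mark TGACNNNGC in Psmb6, the core of the antioxidant response element to which NRF1 and NRF2 bind, and CCAAT, read on the other strand, in Psmb9. The Psmb6 window is chr11:70525107-70525406 on the plus strand and the Psmb9 window is chr17:34187281-34187580 on the minus strand.
Psmb6: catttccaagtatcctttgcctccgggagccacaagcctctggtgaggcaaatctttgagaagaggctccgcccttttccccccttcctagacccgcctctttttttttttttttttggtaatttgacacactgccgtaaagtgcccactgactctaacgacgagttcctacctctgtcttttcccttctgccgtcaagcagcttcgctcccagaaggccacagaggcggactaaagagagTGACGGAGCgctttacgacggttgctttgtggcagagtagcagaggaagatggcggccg
Psmb9: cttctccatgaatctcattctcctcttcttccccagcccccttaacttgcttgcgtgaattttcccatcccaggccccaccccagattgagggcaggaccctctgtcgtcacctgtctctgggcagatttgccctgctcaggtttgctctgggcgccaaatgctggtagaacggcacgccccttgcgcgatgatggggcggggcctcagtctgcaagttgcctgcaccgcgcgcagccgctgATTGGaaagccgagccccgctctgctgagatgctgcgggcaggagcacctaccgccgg
Windows were found for 38 of the 45 genes, 42 in all. Searched on both strands, TGACNNNGC was in 11.9% of them and in 12.4% of all 32851 windows, and CCAAT was in 38.1% and 37.4%. The interferon-stimulated response element, written as GAAA, any 2 bases and GAAA again, was in 9.52% and 3.44%, which for the members meant 4 genes (Psmb3, Psmd4, Psmd9 and Psme1). None of the 4 is an immunoproteasome subunit, and the Psmb9 window printed above held no match. The gap between these shares was not tested. No matches of different motifs overlapped in the members' windows.

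Psmb6 read 9.34, 9.25 and 9.38 in the controls and 8.72, 9.09 and 9.32 in AAV-PIK3CD. Arrays 51 and 52 were below every control and array 53 was among them. The difference was -0.28 (SE 0.16, 95% interval -0.63 to 0.07, rank products adjusted p = 0.949), and without array 51 it was -0.12. Psmb9 read 6.12, 5.99 and 6.45 in the controls and 6.09, 6.29 and 6.62 in AAV-PIK3CD, so the groups overlapped (difference 0.15, SE 0.17, rank products adjusted p = 0.998). Its difference was 0.003 without array 53, 0.27 without array 51 and 0.28 without control array 50. Neither gene passed the test.

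The log2 ratio of Psmb9 to Psmb6 within each array, set relative to its control mean, was -0.08, -0.12 and 0.21 in the controls and 0.51, 0.34 and 0.44 in AAV-PIK3CD. It was higher in all 3 AAV-PIK3CD arrays than in all 3 controls, with the highest control at 0.21 and the lowest AAV-PIK3CD array at 0.34. The group means differed by 0.43, and by 0.37 to 0.53 with each array left out in turn. After quantile normalization the means differed by 0.40, and after cyclic loess by 0.39. The pair was singled out because its genes lay furthest apart in difference among the catalytic subunits. A wide difference in their ratio goes with that choice, also under the other scalings and with arrays left out. No test of the ratio was made. A ratio within an array shows unequal difference and not which gene differed.

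Psmb7 read 9.46, 9.44 and 9.64 in the controls and 9.46, 9.35 and 9.62 in AAV-PIK3CD (difference -0.04, SE 0.13). Its counterpart Psmb10 read 6.76, 6.85 and 6.79 in the controls and 6.58, 6.63 and 7.03 in AAV-PIK3CD (difference -0.05, SE 0.14). Their ratio did not separate the groups: relative to its control mean it was -0.14 to 0.12 in the controls and -0.17 to 0.12 in AAV-PIK3CD, a difference of -0.02.

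Psmb8 read 6.69, 6.73 and 6.73 in the controls and 6.85, 6.50 and 6.90 in AAV-PIK3CD (difference 0.03, SE 0.14). The controls lay within a narrow span while the AAV-PIK3CD arrays fell on both sides of it. All 3 immunoproteasome subunits were highest in array 53, and their median relative to the control mean was 0.23 there, -0.10 in array 51 and -0.17 in array 52. The direction of Psmb7, Psmb8 and Psmb10 changed with single arrays left out, and that of Psmb7 also under quantile normalization and cyclic loess. Leukocytes and Kupffer cells express the immunoproteasome. The log2 of the summed signal of 13 measured leukocyte markers of 15 was 8.03 to 8.21 in the controls and 7.97 to 8.26 in AAV-PIK3CD, with array 53 the lowest of all 6 arrays, and that of 10 Kupffer cell markers was 10.3 to 10.7 in the controls and 10.3 to 10.4 in AAV-PIK3CD, also lowest in array 53. By the median relative to the control mean, the Kupffer cell markers were lowest in control array 48 (-0.153), with array 53 at -0.147. By that measure the leukocyte markers were lowest in array 53 (-0.103). Only 2 of the 13 leukocyte markers, Ptprc and Cd4 (named after their values were seen), were above the array median in all arrays.

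**Figure D4:**
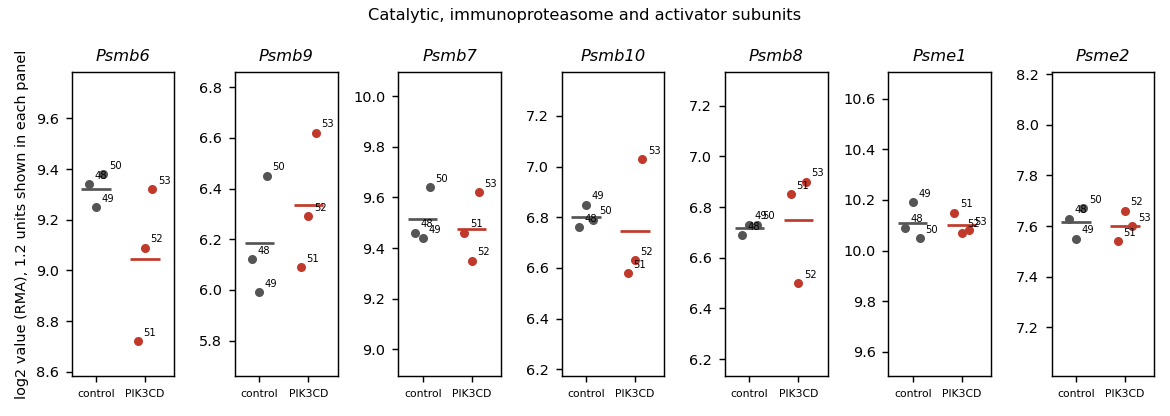
Log2 value (y axis, 1.2 units in each panel) of Psmb6, Psmb9, Psmb7, Psmb10, Psmb8, Psme1 and Psme2 in each array, with the array number beside each point and a line at the group mean (n = 3 arrays). Psmb6 in array 51 reads 8.72 against 9.25 to 9.38 in the controls, and Psmb8, Psmb9 and Psmb10 are highest in array 53.

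The activators open the core gate without ATP. Psme1 and Psme2, the interferon-inducible PA28α and PA28β, form 1 ring together. Psme1 read 10.09, 10.19 and 10.05 in the controls and 10.15, 10.07 and 10.08 in AAV-PIK3CD, a difference of -0.01 with a 95% interval of -0.26 to 0.24. Psme2 read 7.63, 7.55 and 7.67 in the controls and 7.54, 7.66 and 7.60 in AAV-PIK3CD, a difference of -0.02 with an interval of -0.27 to 0.24. Both genes varied little, with SDs of 0.04 to 0.07 in either group, and the groups overlapped. The Psme1 window holds the interferon motif just after the start, at chr14:55578493-55578522 on the plus strand, printed here with the match (on the other strand) in capitals.
Psme1: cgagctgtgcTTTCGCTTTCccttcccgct
Psme3 (PA28γ, the nuclear activator) and Psme4 (PA200) differed by 0.04 (SE 0.16) and -0.03 (SE 0.15). Psme2b, a separate gene close to Psme2 in sequence, differed by 0.04 (SE 0.12), and whether its probe set also takes up Psme2 signal was not tested.

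Psma8, the α subunit of male germ cells, and Psmb11, the β subunit of thymic cortical epithelium, read low. Psma8 was 3.95, 4.11 and 4.40 in the controls and 4.57, 3.73 and 3.84 in AAV-PIK3CD (difference -0.11, SE 0.21), below the array median in every array. Psmb11 had means of 4.35 and 4.30. Psmc3ip, a partner of the meiotic recombinases and not a proteasome subunit, read 4.13, 3.69 and 3.72 in the controls and 4.32, 3.81 and 3.79 in AAV-PIK3CD (difference 0.13, SE 0.18). These levels lay below the array median, and neither Psma8 nor Psmc3ip kept its direction with each array left out. Psme3ip1, which binds PSME3, differed by -0.07 (SE 0.13).

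Genes that build, feed or control the proteasome were examined from lists of 52 measured genes, chosen with earlier results of these data known. None passed the threshold by rank products or by limma. At an unadjusted p under 0.05, 9 of 52 were reached by rank products (background 5.7%) and 5 of 52 by limma (background 5.08%). Of these, 4 and 3 were genes of ER-associated degradation. Given how the lists were chosen, the counts are no test of the pathways. Below 0 lay 36 of the 52 (69.2%, median -0.12) and 51.5% of all probe sets. Among probe sets with levels of 7.41 to 10.12 the share was 70.2%. After quantile normalization these shares were 65.4%, 50.7% and 52.6%. Of 12 measured of 13 further proteasome genes (core assembly chaperones, associated proteins and the lid subunit Sem1), 9 lay below 0, with a median of -0.12. Psmg2, a chaperone of the α ring, read 7.54, 7.27 and 7.46 in the controls and 6.66, 7.09 and 7.35 in AAV-PIK3CD (difference -0.39, SE 0.17, rank products adjusted p = 0.835), lowest in array 51, without which the difference was -0.20. Psmg4, a core assembly chaperone with low values, differed by -0.35 (SE 0.18), and Uchl5, a deubiquitinase of the regulatory particle, by -0.24 (SE 0.13).

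Nfe2l1 encodes NRF1, the transcription factor that raises proteasome genes when proteasome capacity is short, and Ngly1 encodes the enzyme that deglycosylates it. Nfe2l1 read 8.81, 9.06 and 8.82 in the controls and 9.04, 8.85 and 8.85 in AAV-PIK3CD, a difference of 0.02 (SE 0.13) with overlapping groups. Ngly1 differed by 0.11 (SE 0.12). Among 9 measured of 15 listed genes of ubiquitin supply and delivery 7 lay below 0 (median -0.10). None of the 9 encodes ubiquitin itself. Ufd1, a cofactor of the segregase Vcp, read 7.17, 7.19 and 7.56 in the controls and 6.54, 7.0 and 7.16 in AAV-PIK3CD. All its AAV-PIK3CD arrays were below all controls, as in 4.97% of all probe sets (difference -0.41, SE 0.18, rank products adjusted p = 0.829). Ubqln2, a shuttle protein, and Uba6, a ubiquitin-activating enzyme, differed by -0.30 (SE 0.18) and -0.29 (SE 0.14).

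Interferon and antigen processing genes, to which the immunoproteasome belongs functionally, had 7 of 14 measured genes (16 listed) below 0 and a median of -0.02. Tap1, which encodes a subunit of the peptide transporter, starts 226 bases from Psmb9 on the opposite strand, inside the Psmb9 window printed above. It read 6.68, 6.52 and 6.90 in the controls and 6.52, 6.58 and 6.84 in AAV-PIK3CD (difference -0.05, SE 0.14), so the groups overlapped as those of Psmb9 did. The interferon-induced genes Cxcl9, Igtp and Irgm1 differed by -0.32 (SE 0.15), -0.23 (SE 0.26) and -0.22 (SE 0.12), and none passed the test. The Igtp value rested on single controls: it was -0.008 without array 48 and -0.58 without array 50.

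The genes of ER-associated degradation, the route that delivers misfolded secretory proteins to the proteasome, had the widest gap of these lists. Of 15 measured genes (18 listed) 13 lay below 0, beside 51.5% of all probe sets and 70.2% of those with levels of 7.41 to 10.12. The 15 genes had mean levels of 5.94 to 10.47. After quantile normalization 12 of the 15 lay below 0, beside 50.7% and 52.6%. The median of the 15 was -0.25, and it was -0.19 under quantile normalization and -0.20 without array 51. In 6 of 15 the AAV-PIK3CD arrays were all below the controls (background 4.97%). The list was chosen with earlier results of these data known, so this count is no test of the route. That background covers probe sets of every brightness. Syvn1, the ubiquitin ligase of this route, read 9.22, 9.09 and 9.07 in the controls and 8.55, 8.35 and 8.37 in AAV-PIK3CD. It differed by -0.70 (SE 0.12), a 1.63-fold lower signal, but did not pass the test across all probe sets (rank products adjusted p = 0.129, limma adjusted p = 0.932). Sel1l, the partner of Syvn1, read 9.20, 9.24 and 9.03 in the controls and 8.62, 8.97 and 8.48 in AAV-PIK3CD, without overlap (difference -0.47, SE 0.15, rank products adjusted p = 0.659). Derl3, a membrane protein of the same route, differed by -0.29 (SE 0.27) with overlapping groups, by -0.04 without array 51 and by -0.58 without array 50. The sizes for Syvn1 and Sel1l exceeded that of every proteasome gene, and the difference between the lists was not tested.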

How the data were processed

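Total RNA (100 ng per sample) was labelled and hybridised to Clariom S arrays for mouse. Normalisation by the authors was with RMA, and log2 values for 22206 probe sets were deposited to 2 decimals. The RMA version is not given in the sources used here. Deposited columns of 6 arrays were matched to groups through sample titles. Gene symbols came from GEO's platform annotation, in which 19572 probe sets carry 1 symbol and 2634 carry none. The main test, named in the study's methods, was rank products over the 9 treated-control pairs, with 1000 shuffles of gene order, two-sided p-values and Benjamini-Hochberg adjustment over all probe sets at 0.05. The study's methods do not give its threshold or shuffles for this test. The study reports more upregulated genes than the 1 probe set called higher here, so its result was not reproduced. Standard errors and 95% intervals came from limma 3.58.1 (lmFit and eBayes, R 4.3.3). Rank products were computed in Python 3.11.15 with numpy 2.4.6, and both tests were run on simulated data with known changes. A limit on false calls was set for rank products only, on simulated data with 1 common spread, whereas spreads differ between probe sets here. An exact permutation test of 3 against 3 arrays cannot go below 0.10 and was not used. Values in every array were printed for the catalytic β subunits and their immunoproteasome counterparts, Psme1, Psme2, the 10 other members with the smallest rank products p, and, with differences, up to 3 genes of each related list plus Tap1 and Nfe2l1. The members and lists were chosen with earlier results of these data known. Alternatives were limma, the methods' t-test, quantile normalization, median centring, cyclic loess, a filter on the dimmest 50% of probe sets, leaving out each array in turn, and keeping only 1 probe set for a symbol. The number of arrays limits the precision. Sequences are from RefSeq (GRCm38.p6).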

Additional observations from a re-analysis of the deposited data

How the results depend on the processing

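The counts of proteasome genes and of related genes past the threshold were 0 under every alternative run (limma, the methods' t-test, 3 other scalings, the filter on dim probe sets, only 1 probe set for a symbol, and leaving out each array in turn). Medians moved with the scaling, and the cause was not tested. For all members the median of -0.06 became -0.0050 under quantile normalization, -0.0059 under cyclic loess and -0.0933 under median centring, and lay between -0.0917 and -0.0417 when single arrays were left out. The core median of -0.10 became -0.0367 under quantile normalization and -0.0364 under cyclic loess. The base median of -0.02 became 0.0497 and 0.0413, and lay between -0.0383 and 0.0367 without single arrays. The activator median of -0.01 became 0.0378 and 0.0450, and lay between -0.0408 and 0.0417. The lid median of -0.17 stayed below 0 under the 3 scalings (-0.21 to -0.10) and without single arrays (-0.21 to -0.12). Over all 45 members, 21 kept their sign whichever array was left out. Of the 33 genes that the naming rule chose, 9 changed sign without 1 of the arrays: Psmb7 lay between -0.108 and 0.0267, Psmb8 between -0.0417 and 0.158, Psmb10 between -0.195 and 0.030, Psme1 between -0.040 and 0.030, Psme2 between -0.050 and 0.0133, Psma8 between -0.368 and 0.0517, Psmc3ip between -0.0467 and 0.268, Nfe2l1 between -0.0467 and 0.0983 and Tap1 between -0.15 and 0.0467. Of the same 33, 4 did with another scaling: under quantile normalization and cyclic loess Psmb7 became 0.0014 and 0.0228, Psme1 0.0339 and 0.0448, and Psme2 0.0417 and 0.0453, and under median centring Nfe2l1 became -0.0167. No paired analysis was possible because the arrays of the groups share no replicate number.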
